A study of Mustela putorius furo with 8 samples.

Results

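CF cluster 10 is a cluster of ferret pancreatic ductal epithelial (PDE) cells in which genes of DNA replication were high. Its members were taken from the deposited cell table, as every cell that the authors had put in cluster 10 of the CF cells, a cluster that they named ductal. There were 403 such cells, out of 11345 CF cells and 32945 cells in all. Of these, 347 came from day 2 of culture at an air-liquid interface (ALI), 53 from day 5, 2 from day 7 and 1 from day 9. The study compared cultures of wild-type (WT) ferrets with cultures of ferrets homozygous for a CFTR knockout (CF), which lack the chloride and bicarbonate channel of the duct. Both kinds of culture came from ducts of newborn animals, were expanded for several passages as pancreatic ductal cells and were then polarized at ALI, with cells of 3 donors pooled per genotype. Single-cell RNA libraries were made with the 10x Genomics droplet method at day 2, 5, 7 and 9, 1 library for each genotype and day. Cluster 10 is compared here with the other CF cells of day 2, which share its genotype, day and library.

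In S phase a cell copies its genome a single time. Before it begins, origins of replication are licensed by loading of the MCM helicase, and E2F transcription factors, held back by RB proteins until cyclin-dependent kinases act, drive the genes for licensing, for deoxynucleotide supply and for the replication fork. Mitotic genes such as those for cyclin B and the kinesins come on later, in G2. Duct cells of the adult pancreas rarely divide, whereas duct cells in culture do.

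With 1 library for each genotype and day, no difference below has a replicate check, no test between groups was possible and no p-value is given. Values are sums of unique molecular identifiers (UMIs, each counting 1 captured RNA molecule) over the cells of a set, given as counts per 1000000 UMIs (CPM). Intervals are 95% intervals for counting error only, and do not cover variation between cultures or animals. The clusters had been built from the same genes, so a difference between cluster 10 and the rest describes the cluster and tests nothing. The cluster's day 2 cells summed to 9102034 UMIs and the other 4152 CF cells of day 2 to 93226555. The cluster was somewhat deeper per cell, with a median of 21891 UMIs against 17454. Mitochondrial UMIs made up a median of 7.27% in the cluster and 7.02% in the other cells. The CF day 2 and day 5 libraries shared 9 barcodes among their retained cells, and doublets had been removed by the authors before the table was deposited. CFTR, the targeted gene, was at 2.31 CPM (1.43 to 3.53) in cluster 10 and at 2.52 CPM in the other cells, against 6.57 CPM in the WT day 2 library. The sources used here do not say whether the counted end of CFTR lies in the disrupted part, so these levels do not check the genotype.

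Cluster 10 was almost wholly in S phase by the authors' calls. At day 2, 322 of its 347 cells (92.8%, exact Clopper-Pearson interval 89.5 to 95.3%) carried the deposited phase S, 19 (5.48%) the phase G2M and 6 (1.73%) the phase G1. Among the other CF day 2 cells 861 of 4152 (20.7%) were called S, while 64.8% were called G1 and 14.5% G2M. Cluster 10 made up 7.71% (6.95 to 8.53%) of the CF day 2 cells and held 27.2% of those called S. Its share of the library was lower at day 5, with 53 of 2750 cells (1.93%, 1.45 to 2.51%), and 48 of these 53 cells (90.6%) were called S. At day 7 and day 9 it held 0.124% and 0.0402% of the cells. These shares rest on 4 libraries, 1 for each day.

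**Figure D1:**
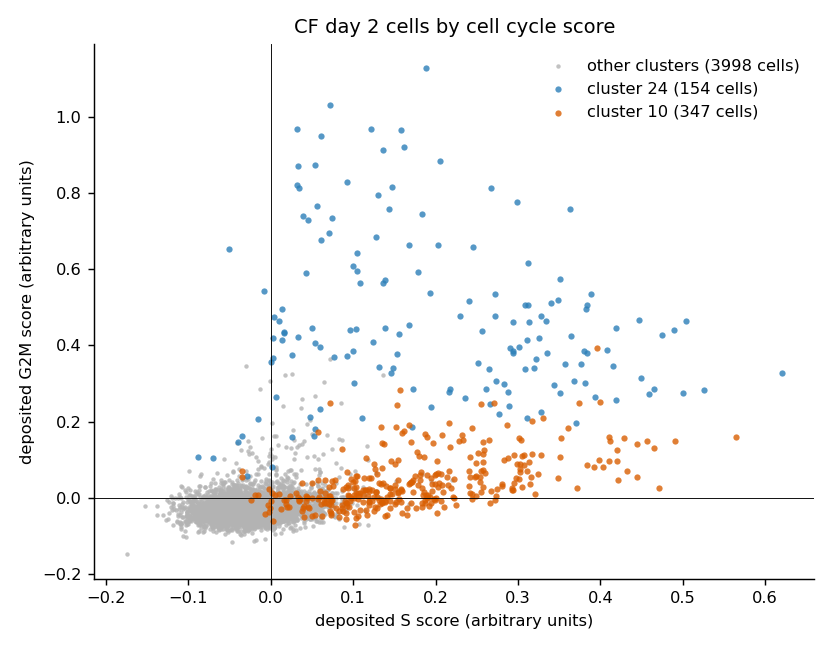
Deposited S score (horizontal axis, arbitrary units) and G2M score (vertical axis, arbitrary units) of each CF day 2 cell, with cluster 10 in orange, cluster 24 in blue and all other clusters in grey; each point is 1 cell. Cluster 10 spreads along the S score with a median of 0.154. Its median G2M score is 0.0232, against 0.423 in cluster 24, which lies above it, and -0.0288 in all cells outside cluster 10. The cells of the other clusters crowd around 0 on both axes.

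Carrying the phase S did not by itself mean a high score. The median S score was 0.154 in cluster 10 (quartiles 0.0941 and 0.242), 0.0248 in the other cells called S, and -0.0274 in all other cells of the day. Outside cluster 10, 136 of 4152 cells had an S score above the lower quartile of the cluster, and 108 of these 136 lay in cluster 24. The phases were therefore called again here from lists of S and G2/M genes chosen for this purpose, which may differ from those behind the deposited calls, after each cell had been thinned to 3000 UMIs. By that scoring 164 of 346 cells of cluster 10 were in S (47.4%, 42.0 to 52.8%), 118 (34.1%) in G1 and 64 (18.5%) in G2M. In the other cells of day 2 the same scoring put 2.16% in S and 89.5% in G1. The share in S thus depended on the scoring in both sets, and cluster 10 was the higher set under both scorings. Genes of this kind also part the cluster from the other cells, so the higher share describes the cluster and tests nothing. Counted directly, a cell of cluster 10 thinned to 3000 UMIs held a median of 5 UMIs of the S list (quartiles 4 and 8), against 1 (quartiles 1 and 2) in the other cells and 2 (quartiles 1 and 3) in cells called S outside clusters 10 and 24.

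The 5 genes given as marks of this cluster separated it from nearly all others. They cover steps of S phase entry: E2F1 is an activating E2F factor, MCM4 a subunit of the replicative helicase, TK1 the cytosolic thymidine kinase, UHRF1 the reader of half-methylated DNA that guides the maintenance DNA methyltransferase, and CDCA7 a partner of the chromatin remodeller HELLS. E2F1 stood at 26.1 CPM (22.9 to 29.7) in cluster 10 and 1.83 CPM (1.57 to 2.13) in the other day 2 cells, 14.3-fold higher (11.7 to 17.5). MCM4 stood at 99.5 CPM (93.2 to 106) against 10.6 CPM, 9.40-fold higher (8.58 to 10.3). TK1 was at 49.1 CPM against 5.42 CPM. All of these were further apart than their counting intervals. CDCA7 was at 18.1 CPM against 1.66 CPM. UHRF1 was at 56.0 CPM against 6.98 CPM, 8.02-fold higher (7.13 to 9.02). These ratios depend on cluster 24 being among the other cells. The 5 markers summed to 249 CPM in cluster 10 and 26.5 CPM in the other cells, or 15.9 CPM without cluster 24.

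**Figure D2:**
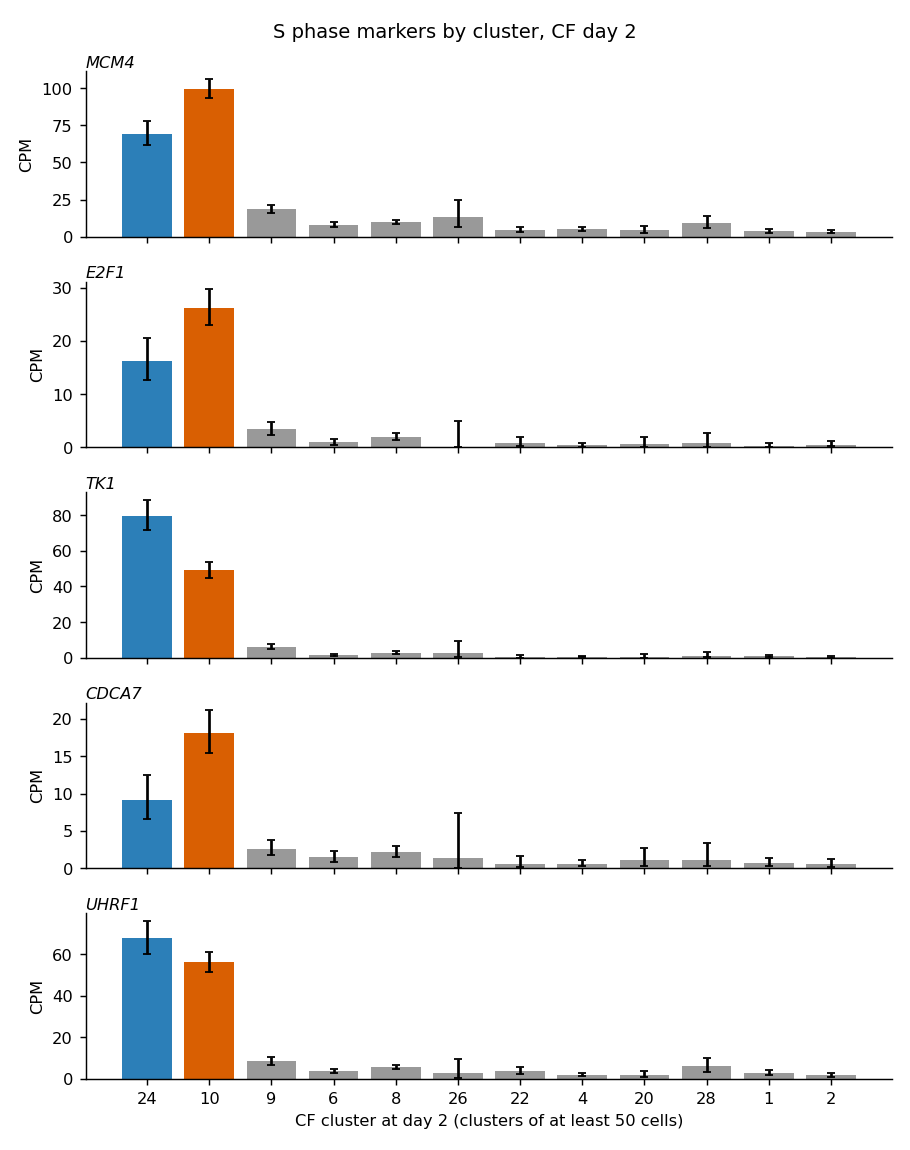
CPM of the 5 markers (a panel each, linear axes from 0) in the 12 CF clusters with at least 50 cells at day 2; bars are sums over the cells of a cluster and error bars are 95% Poisson intervals. Cluster 10 (orange) and cluster 24 (blue) are the highest pair in each panel, and cluster 9 comes next in each, at 18.4 CPM for MCM4.

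Among the 12 CF clusters with at least 50 cells at day 2, the marker levels gave an order with a wide step. For MCM4, E2F1 and CDCA7 cluster 10 was the highest and cluster 24, which the authors named proliferating acinar, was the next. For TK1 and UHRF1 cluster 24 was higher, at 79.7 and 67.8 CPM. Cluster 9, named ductal, held the highest E2F1 of the remaining 10 clusters, at 3.37 CPM. Its MCM4 was at 18.4 CPM. In the other clusters MCM4 ran from 3.23 to 13.3 CPM, and the intervals of many of these neighbours overlapped. Single cells gave the same picture at equal depth. After thinning to 3000 UMIs, MCM4 was seen in 104 of 346 cells of cluster 10 (30.1%) and in 95 of 4114 other cells (2.31%). Without thinning, the shares were 82.4% and 13.99%. As a set that should hold few S phase transcripts, the G1-called cells of cluster 4, which the authors named centroacinar progenitor, held an MCM4 UMI in 5 of 523 cells (0.956%). Those G1 cells had a median of 21930 UMIs, close to that of cluster 10. UHRF1 was seen in 19.1% of cluster 10 and in 0.382% of the same G1 cells. PCNA, the sliding clamp of the polymerases, was a weaker mark, with 40.5% in cluster 10, 12.7% in the other cells and 11.3% in the G1 cells of cluster 4. RRM2 was seen in 1.15% of those G1 cells. These cells were chosen by a phase call, which is itself made from scores of cell cycle genes, and no share of free RNA was measured. Unthinned, UHRF1 was seen in 63.7% of cluster 10 and 3.43% of those G1 cells, and PCNA in 93.7% and 56.4%.

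Across all genes, those of at least 10 CPM in either set were compared on the scale of log2(CPM + 1), which understates differences of genes near 1 CPM. A gene that reached 10 CPM in cluster 10 alone could not be counted as lower. A gene that reached it in the other set alone could not be counted as higher. This holds for the list counts below too, and how many list members entered through cluster 10 alone was not counted. Of 7700 such genes, 145 were at least 2-fold higher in cluster 10 (1.88%) and 100 at least 2-fold lower (1.30%), and the median difference over all 7700 was 0.01 on that scale. Of the 145 higher genes, 83 belonged to a cell cycle list used here and 62 did not. The lists do not hold every cycle gene. Outside them, and named here after their values were seen, were the kinetochore and condensin genes CENPH, CENPK, SPC24, SKA1, ZWINT, NCAPG and SMC2. They are not in the count given for the G2/M list below. Among the 62 were PCLAF, the PCNA-associated factor, at 74.0 against 14.8 CPM, and the linker histone gene H1-5 at 23.4 against 6.24 CPM. PHGDH, of serine synthesis, at 50.6 against 23.98 CPM and MTHFD2, of one-carbon metabolism, at 14.4 against 5.25 CPM were also among the 62. No list of such genes was drawn up, and SHMT1, of the same metabolism, at 24.3 CPM in cluster 10, was not among the 145. The 12 with the largest difference were E2F1, MCM4, UNG, TK1, BARD1, CDCA7, UHRF1, DSCC1, CLSPN, TYMS, MCM2 and GINS2. Against the other 2246 day 2 cells of the class ductal alone, 215 of 7674 genes were at least 2-fold higher (2.80%) and 89 lower (1.16%), and these counts held 144 of the 145 and 82 of the 90 lower genes that could be tested. The cluster 10 cells are the same and the ductal cells are part of the set in which these genes were picked. The overlap thus follows in large part from that choice. For 134 of the 145, clusters 10 and 24 were the highest pair of the 12 clusters. Cluster 24 was the highest of all for 110 of the 145, and cluster 10 itself for 27. None of the 100 lower genes was in a cell cycle list. The share of list genes among all 7700 was not counted, so this and the 83 of 145 have no share to be set against. ASPM, a spindle pole gene outside the lists, was among the 100, at 4.83 CPM against 13.8 CPM, but the others without cluster 24 were at 2.64 CPM, below cluster 10.

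**Figure D3:**
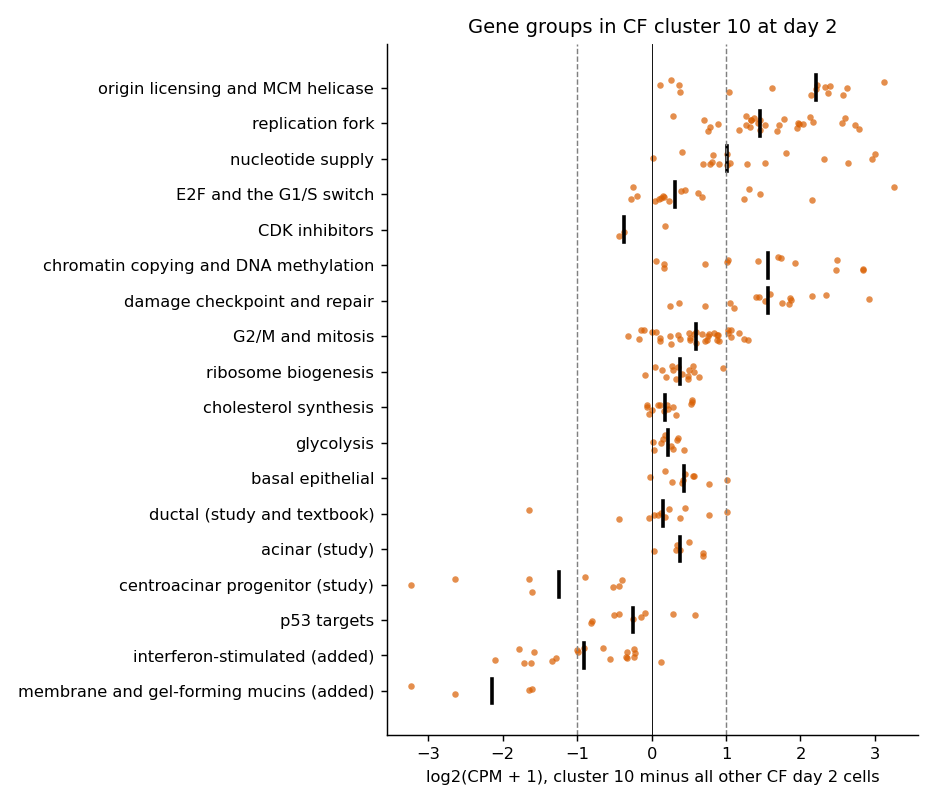
Difference in log2(CPM + 1), cluster 10 minus all other CF day 2 cells, for each gene of a list that reached 10 CPM in either set (points, jittered vertically); black bars are list medians and dashed lines mark 2-fold. Licensing, fork, chromatin copying and repair lists have medians above 1, the G2/M list lies at 0.60 with cluster 24 among the other cells, and the progenitor and mucin lists lie below -1.

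Origin licensing had the highest median of the lists grouped by function. Of 15 members tested, 11 were at least 2-fold higher and none lower, with a median difference of 2.20. All 6 subunits of the MCM2-7 helicase were in this count, from MCM5, at 68.9 CPM against 14.9 CPM, to MCM4 above. MCM2 was at 29.1 against 3.86 CPM and MCM3 at 86.1 against 13.6 CPM. The loading factors CDC6 and CDT1 were low in absolute terms but far apart, CDC6 at 10.4 CPM (8.44 to 12.8) against 1.18 CPM and CDT1 at 30.5 CPM against 5.86 CPM. The 4 members short of 2-fold included the origin recognition subunits ORC2 and ORC3. ORC2 was at 29.6 CPM against 24.6 CPM, whereas ORC6 was at 73.0 against 23.0 CPM. GMNN, whose product geminin blocks renewed licensing within a cycle, hardly differed, at 202 against 187 CPM (1.08-fold, 1.03 to 1.14).

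Genes of the replication fork were high too. Of 29 tested, 24 were at least 2-fold higher and none lower, with a median of 1.45. GINS2, part of the active helicase, stood at 50.9 CPM against 7.58 CPM. CDC45, its partner, was at 8.24 CPM against 0.837 CPM, under the level that entered the count. CLSPN, the mediator that signals stalled forks to CHEK1, was at 51.2 against 6.88 CPM, 7.45-fold higher (6.59 to 8.40). DSCC1, of the cohesion-linked clamp loader, was at 23.6 against 2.57 CPM. The clamp PCNA itself was among the most abundant, at 183 against 52.9 CPM, but only 3.46-fold higher (3.27 to 3.66). Smaller still was the difference of RPA3, a subunit of the single-strand binding complex, at 225 against 185 CPM.

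Deoxynucleotide supply was high as well. Of 17 genes tested, 10 were at least 2-fold higher, with a median of 1.01. RRM2, the regulated subunit of ribonucleotide reductase, was at 171 CPM against 33.3 CPM, and RRM1, the other subunit, at 112 against 45.6 CPM. TYMS, the thymidylate synthase, was at 25.8 against 3.29 CPM. UNG, which removes uracil from DNA, showed the largest ratio in the list, at 14.8 CPM against 0.987 CPM (15.0-fold, 11.4 to 19.8). UMPS, which completes the making of uridine monophosphate, was at 29.99 against 29.6 CPM.

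The E2F switch itself was uneven. Of 18 genes tested, 5 were at least 2-fold higher and none lower, with a median of 0.31. These 5 were E2F1, MYBL2, CDC25A, CDK2 and RBL1. MYBL2, an E2F target that helps bring on G2 genes, was at 63.8 against 13.5 CPM. E2F3, by contrast, was at 36.0 CPM (32.2 to 40.2) against 32.0 CPM. The E-type cyclins, partners of CDK2, were too low for the count: CCNE1 was at 4.50 CPM (3.23 to 6.11) against 1.91 CPM and CCNE2 at 4.28 CPM (3.05 to 5.86) against 0.976 CPM. The D-type cyclins, which respond to growth signals, were split, with CCND1 at 111 against 71.6 CPM and CCND2 at 356 against 408 CPM. Inhibitors of cyclin-dependent kinases were present in these cells. CDKN1A, which encodes p21, was at 395 CPM (382 to 408) against 537 CPM, the lowest of the 12 clusters, though cluster 1, at 402 CPM, lay within that interval. CDKN1B, which encodes p27, was at 23.4 against 30.5 CPM, and of the 3 inhibitors tested none was 2-fold apart.

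Chromatin copying and DNA methylation genes gave 10 of 14 at least 2-fold higher and none lower, with a median of 1.57. DNMT1, the maintenance methyltransferase, was at 150 CPM against 55.1 CPM. HELLS, the remodeller that CDCA7 recruits, was at 96.9 against 28.4 CPM. CHAF1A and CHAF1B, of the chromatin assembly factor that loads histones behind the fork, were at 52.0 against 8.54 CPM and 13.8 against 1.63 CPM. TET2, which acts against methylation, was at 46.4 against 44.3 CPM. Checkpoint and repair genes gave 13 of 16 at least 2-fold higher, with a median of 1.56. Members such as BARD1, BRCA1 and CHEK1 reached 10 CPM in cluster 10 alone, so they could not have been counted as lower. BARD1 was at 29.4 CPM (26.0 to 33.2) against 3.00 CPM and its partner BRCA1 at 27.5 against 4.59 CPM. CHEK1, the fork checkpoint kinase, was at 23.5 against 5.72 CPM. The kinases that start these checkpoints were not far apart, ATR at 10.2 against 7.68 CPM and ATM at 20.8 against 17.4 CPM.

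Mitotic genes were less far apart than those of licensing and the fork, and their count depended on whether cluster 24 was among the other cells. Of 35 G2/M genes tested, 7 were at least 2-fold higher and none lower, with a median of 0.60. Without cluster 24 in the reference, 20 of 35 were at least 2-fold higher and none lower, with a median of 1.41, while 187 of all 7708 genes tested were higher (2.43%) and 112 lower (1.45%). In that comparison the licensing list gave 11 of 15 and the fork list 24 of 29, with medians of 2.38 and 1.66. The summed list stood at 1972 CPM in cluster 10 and 1517 CPM in the other cells, or 1193 CPM without cluster 24. Against all other cells GTSE1 had the largest difference, at 20.9 against 7.95 CPM, followed by CDK1, the mitotic kinase, at 27.8 against 11.2 CPM. MKI67, a common proliferation mark, was at 17.9 CPM (15.3 to 20.9) against 11.5 CPM, and against 2.86 CPM without cluster 24. CCNB1, the mitotic cyclin, was at 6.48 CPM (4.93 to 8.36), below the 8.79 CPM of all other cells and above the 2.10 CPM of those without cluster 24. CENPF was at 36.8 against 33.8 CPM, and against 6.62 CPM without cluster 24. For each of these 3 genes cluster 10 ranked 3 of the 12 clusters, after clusters 24 and 9. At 3000 UMIs a cell, MKI67 was seen in 9 of 346 cells of cluster 10 (2.60%) and 72 of 153 cells of cluster 24 (47.1%), and without thinning in 20.2% and 91.6%.

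Among cells with the deposited phase S alone, the differences were narrower and had the same sign for the higher genes. The 322 S cells of cluster 10 were set against 861 other S cells of the same library. The 2 sets were not matched in S score, with medians of 0.160 and 0.0248. By the scoring of thinned cells made here, 842 of all day 2 cells called S fell in G1, 107 in G2M and 221 in S. Of 7646 genes tested, 119 were at least 2-fold higher (1.56%) and 62 lower (0.811%), with an overall median of 0.03. Among the 145 genes that were higher against all other cells, 143 were tested here. All 143 had the same sign and 108 were at least 2-fold higher. These S cells are part of the sets in which the 145 genes were picked, so the overlap follows in part from that choice. E2F1 led the list, at 27.3 CPM (23.8 to 31.1) against 4.70 CPM (3.76 to 5.79). TK1 was at 49.7 against 9.66 CPM and DSCC1 at 24.6 against 4.80 CPM. MCM4 was at 105 CPM against 26.3 CPM, 3.98-fold higher (3.56 to 4.46). Cluster 24 supplied 27 of those 861 cells, and without it 152 of 7649 genes were at least 2-fold higher (1.99%) and 71 lower (0.928%). TK1 was then at 3.87 CPM in the other S cells, a ratio of 12.8 (9.93 to 16.8) in place of 5.14. MCM4 was then 5.05-fold higher (4.46 to 5.71).

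Within cluster 10 the cells lay along a range of G2M scores, and S phase genes differed in how they followed it. The 347 day 2 cells were cut by rank into 116 with the lowest, 116 with the middle and 115 with the highest deposited G2M score. These are ranges and not types, since 64 cells lay within 0.01 of the lower cut and 33 within 0.01 of the upper. Depth moved with the ranges, at medians of 18570, 23907 and 27608 UMIs. The deposited S score moved with them too, at medians of 0.0964, 0.149 and 0.249. The part of depth and of the S score in the differences below was not tested. From the lowest to the highest range, 18 of 7748 genes tested were at least 2-fold higher in the lowest (0.232%) and 155 at least 2-fold lower there (2.00%). The G2/M list gave 36 of its 47 tested genes in the latter count, which describes the cut, since scores of this kind are made from such genes.

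The licensing, fork, nucleotide and repair lists share no gene with the G2/M lists used here, while the genes behind the deposited score are not given in the sources used here. Of 15 licensing genes 2 were at least 2-fold lower in the lowest range, CDC6 and MCM10, and the median difference was -0.46. MCM2 was at 28.1, 29.4 and 29.6 CPM in the lowest, middle and highest range, and the intervals overlapped. CDCA7 was at 17.1, 17.2 and 19.7 CPM. MSH6, of the mismatch repair pathway, was level too, at 64.3, 60.8 and 70.8 CPM. MCM4 differed more, at 77.9, 88.5 and 126 CPM. Fork and nucleotide genes spread further. Of 31 fork genes 13 were at least 2-fold lower in the lowest range, with a median of -0.89. CLSPN was at 16.3 CPM (11.8 to 22.02) in the lowest, 48.6 in the middle and 80.1 CPM (70.9 to 90.1) in the highest range. TK1 was at 20.9, 40.6 and 78.1 CPM. RRM2 was at 89.4, 144 and 256 CPM. FANCI, a member of the Fanconi anaemia repair pathway, was at 2.28 CPM (0.837 to 4.97), 10.9 and 22.1 CPM. The repressor E2F7, which closes the E2F programme, was at 1.90, 4.29 and 12.2 CPM.

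**Figure D4:**
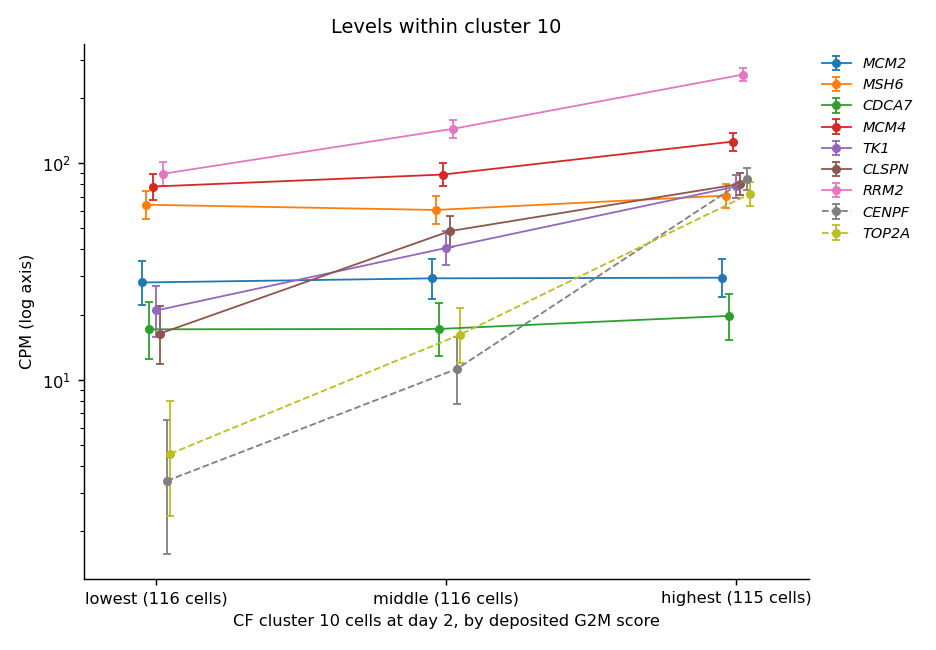
CPM (log axis) of 9 genes in the cells of cluster 10 at day 2 with the lowest, middle and highest deposited G2M score; points are sums over the cells of a range and error bars are 95% Poisson intervals, with the mitotic genes CENPF and TOP2A dashed. MCM2, MSH6 and CDCA7 stay level across the ranges, whereas TK1, CLSPN and RRM2 are 2.87 to 4.90 times as high in the highest as in the lowest range.

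Lists outside the cycle differed in how they followed the ranges. The ductal list stood at 16774, 17478 and 16035 CPM and the basal list at 4004, 3959 and 3260 CPM. The mucin list, drawn up after the values had been seen, was at 262, 266 and 460 CPM (438 to 484 in the highest range), and the study's list of centroacinar progenitor genes, which holds mucins too, at 510, 547 and 783 CPM. BTG1, an antiproliferative gene, was at 855, 759 and 640 CPM. All 11 immediate early genes tested were higher in the lowest than in the highest range, none of them 2-fold, with a median of 0.30, against -0.01 over all genes.

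Cluster 24 was the cluster most like cluster 10. Over 7371 genes the Pearson correlation of log2(CPM + 1) with cluster 10 was 0.982 for cluster 24, 0.978 for cluster 6 and 0.885 for cluster 4, the lowest of the 11. These correlations run across genes of 1 library and are given as a description. The authors' names part this pair, as ductal and as proliferating acinar. Of 7804 genes tested only 5 were at least 2-fold higher in cluster 10 than in cluster 24 (0.0641%), and 194 were lower (2.49%). Among the 5 were UNG, LTB, NEURL2 and LOC101679442, and apart from UNG these are named here after their values were seen. UNG was at 14.8 CPM against 5.50 CPM, 2.70-fold higher (1.74 to 4.36). LTB, a cytokine of the tumour necrosis factor family, was at 15.3 against 6.64 CPM. Against them stood the mitotic genes. Of 53 G2/M genes tested, 48 were at least 2-fold lower in cluster 10 and the median was -2.55, against -0.06 over all genes. Members that reached 10 CPM in cluster 24 alone could not have been counted as higher in cluster 10. CENPF was at 36.8 CPM in cluster 10 and 587 CPM in cluster 24. CCNB1 was at 6.48 against 145 CPM and TOP2A at 34.1 against 327 CPM.

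The S phase lists lay closer in this pair. The summed S list was at 1846 CPM in cluster 10 and 2279 CPM in cluster 24, against 635 CPM in cluster 9 and 596 CPM or less in the other 9 clusters. Licensing genes gave none of 15 at 2-fold in either direction. Among the 5 markers MCM4 was higher in cluster 10, as was E2F1, 1.61-fold (1.23 to 2.13), and CDCA7 was 1.98-fold higher (1.39 to 2.87). RRM2 was lower, at 171 against 345 CPM, and DUT, the dUTPase, was at 225 against 534 CPM. The ductal list was at 16729 and 15802 CPM and the acinar list of the study at 1122 and 1168 CPM. None of 12 ductal and none of 7 acinar genes tested was 2-fold apart between clusters 10 and 24.

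Duct markers were present in cluster 10 and in the other cells. KRT19, the common duct keratin, was at 6477 CPM (6425 to 6530) against 4980 CPM in the other day 2 cells. KRT7 was at 2184 against 2128 CPM. SOX9, the duct transcription factor, was low in both, at 6.70 CPM (5.13 to 8.61) against 5.93 CPM. Of 12 ductal genes tested, KRT15 was at least 2-fold higher, at 33.1 against 15.9 CPM, and MUC1 at least 2-fold lower, at 286 against 897 CPM, with a list median of 0.15. By single clusters, cluster 10 ranked 3 of 12 for KRT15, below clusters 2 and 26 at 41.8 and 41.2 CPM, and 7 for MUC1. For KRT19 it ranked 4 of 12, and the median over the other clusters was 6236 CPM. The study's acinar list was close by, with none of 7 at 2-fold and a median of 0.38. Pancreatic enzymes were nearly absent, with 1 UMI in the cluster over the 5 enzyme genes found of 11 listed, or 0.110 CPM against 0.139 CPM. Most basal epithelial genes were above the pooled other cells, while KRT5 and TP63 lay in the middle of the single clusters. KRT5, the basal keratin, was at 1422 against 835 CPM, and cluster 10 ranked 5 of 12 clusters, from 78.1 CPM in cluster 4 to 2175 CPM in cluster 28. Of the basal list, 9 of 10 genes were above the other cells, of which 1, KRT15, reached 2-fold. The share of all genes above the other cells was not counted. TP63, the basal transcription factor, was at 95.5 CPM (89.2 to 102) against 69.7 CPM, and ranked 6 of 12. At 3000 UMIs a cell KRT5 was seen in 96.0% of cluster 10, against 73.9% of the other cells, and without thinning in 99.4% and 89.0%.

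Signs of other tissues were slight. Endothelial and fibroblast lists summed to 2 UMIs each in the cluster, 0.220 CPM apiece, and the fibroblast list was at 10.4 CPM in the other cells. The immune list was at 18.1 against 25.5 CPM, most of it CD68 at 15.5 CPM, a lysosomal gene, while the defining leukocyte gene PTPRC had no UMI in the cluster, which allows up to 0.330 CPM, and 1 UMI in the other cells. The endocrine list was at 26.0 CPM in the cluster against 27.2 CPM in the other cells, most of it ISL1 at 25.7 CPM in the cluster. PDX1, the pancreatic progenitor factor, was at 2.75 CPM (1.78 to 4.05) against 3.43 CPM.

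The genes lower in cluster 10 included mucins, a matrix metalloproteinase and 1 of the dual oxidases of the epithelial surface with its maturation factor. Lowest by difference was LOC101676065, a protein-coding gene without a symbol, at 1.87 CPM (1.09 to 2.99) against 29.0 CPM. Then came MUC5AC, a gel-forming mucin, at 2.75 CPM against 34.2 CPM. MMP7, a matrix metalloproteinase of glandular epithelia, was at 22.4 CPM (19.4 to 25.7) against 196 CPM. The 12 lowest included 3 more genes without a symbol. MUC4, a membrane mucin, was at 6.48 against 45.5 CPM, and RETNLB, a secreted resistin-like protein, at 4.17 against 27.6 CPM. DUOX2 and its maturation factor DUOXA2, which make hydrogen peroxide at the apical surface, were at 3.41 against 22.2 CPM and 6.70 against 39.7 CPM. DUOX1, another dual oxidase, and DUOXA1 were not among the lower genes, and are named here after their values were seen. They were at 87.5 and 24.7 CPM in cluster 10, which ranked 2 and 3 of 12 clusters for them. All 4 mucins tested were at least 2-fold lower, with a median of -2.14. Of 19 interferon-stimulated genes 7 were at least 2-fold lower and 1 was above the other cells, with a median of -0.91. The lists of mucins and of interferon genes were drawn up after the values had been seen, and describe only what was there. ISG15, a ubiquitin-like interferon product, was at 12.9 against 44.5 CPM and MX2, an antiviral GTPase, at 5.49 against 26.9 CPM. The study's list of centroacinar progenitor genes, chosen on these samples, gave 4 of 8 lower, and these were the mucins MUC5AC, MUC4, MUC1 and MUC16.

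**Figure D5:**
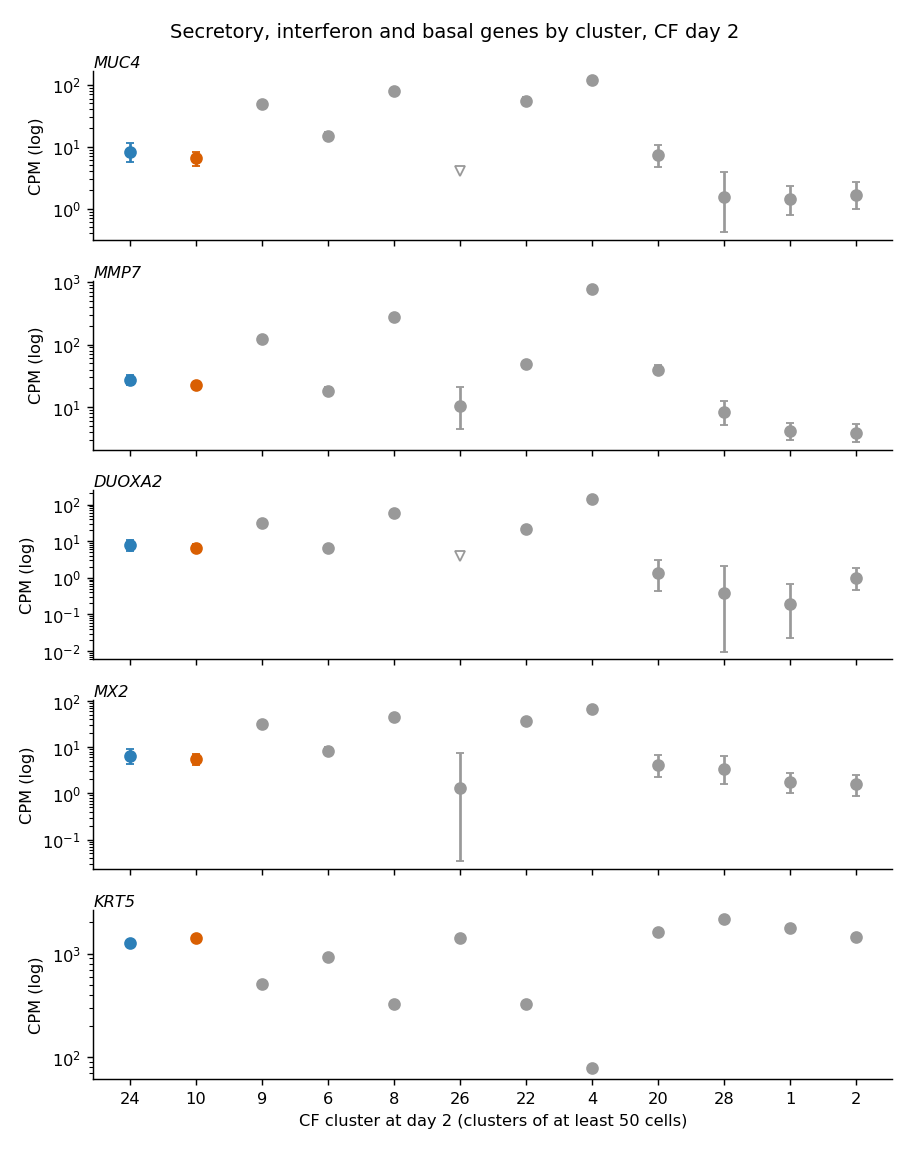
CPM on log axes of MUC4, MMP7, DUOXA2, MX2 and KRT5 (a panel each) in the 12 CF clusters with at least 50 cells at day 2, ordered by the summed S list; points are sums over a cluster's cells, error bars 95% Poisson intervals, and open triangles the level of 3 counts where no UMI was counted. Cluster 10 (orange) lies between the high clusters 4, 8, 9 and 22 and the low clusters 1 and 2 for the mucin, protease, oxidase and interferon genes, and beside cluster 24 (blue).

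Against single clusters these genes were mostly in the middle in cluster 10. For the 100 lower genes its median rank was 7 of 12 clusters, and it was the lowest of all for 2. Cluster 4 was the highest for 94 of the 100. MMP7 was at 771 CPM in cluster 4 and 270 CPM in cluster 8, while the median over the 11 other clusters was 27.2 CPM, close to the 22.4 CPM of cluster 10. MUC4 was at 120 CPM in cluster 4, with a median of 8.24 CPM over the 11 clusters. MX2 was at 67.0 CPM in cluster 4, with a median of 6.41 CPM. Among cells called S alone, MUC5AC was at 2.55 against 30.4 CPM and MMP7 at 22.7 against 134 CPM.

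Cluster 10 was also found in the day 5 library, with a higher median S score than at day 2, 0.256 against 0.154. Its 53 cells had a median of 34266 UMIs, against 22614 in the other CF cells of that day. Of 8059 genes tested against those cells 317 were at least 2-fold higher (3.93%) and 225 lower (2.79%). Among the 145 genes higher at day 2, 141 were tested at day 5, all 141 had the same sign and 140 were at least 2-fold higher again. The cluster was built from cells of both days together, so this overlap follows in part from the clustering. Of the 100 lower genes 86 were tested, 85 had the same sign and 51 were at least 2-fold lower. MCM4 was at 121 CPM (106 to 137) against 4.45 CPM and E2F1 at 22.7 CPM (16.5 to 30.4) against 0.676 CPM. The summed S list was at 2280 CPM in the cluster and 545 CPM in the other cells at day 5, against 1846 and 637 CPM at day 2. G2/M genes gave 23 of 38 at least 2-fold higher at day 5, with the summed list at 2289 against 1368 CPM.

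The cells of cluster 10 were also set against each other between the days. Of 7890 genes tested 58 were at least 2-fold higher at day 2 (0.735%) and 120 at least 2-fold higher at day 5 (1.52%). For the other CF cells these counts were 48 (0.620%) and 135 (1.74%) of 7739. No licensing, fork, nucleotide, chromatin or repair gene was in either count. TK1 was at 49.1 and 52.9 CPM and E2F1 at 26.1 and 22.7 CPM on day 2 and day 5. The largest difference was LY6D, a surface protein of stratified epithelia, at 46.7 CPM (42.4 to 51.4) on day 2 and 1286 CPM (1237 to 1337) on day 5. In the other CF cells LY6D was at 26.4 and 593 CPM, so it differed between the libraries in both sets. SPINK1, the trypsin inhibitor of the pancreas, had 0 UMIs in the cluster on day 2, which allows up to 0.330 CPM, and 22 UMIs on day 5, or 11.1 CPM (6.95 to 16.8). It was at 0.976 and 30.3 CPM in the other cells. CES1, a carboxylesterase, was at 4.50 and 52.4 CPM, and UPK1A, a uroplakin of the epithelial surface, at 6.70 and 57.5 CPM. Higher on day 2 were CCDC88A, a regulator of actin and migration, at 13.5 against 3.02 CPM, and ECM1, an extracellular matrix protein, at 18.7 against 4.54 CPM. Of the 6 highest on each day, 4 of those on day 2 and 2 of those on day 5 had no symbol, and the annotation gives the latter pair as ribosomal RNA.

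Cholesterol synthesis genes were higher in cluster 10 at day 5 than at day 2. The list summed to 830 CPM in the cluster on day 2 and 1547 CPM on day 5. The other CF cells were at 721 CPM and 869 CPM on those days. All 15 genes tested were higher at day 5 in the cluster, 4 of them at least 2-fold. Over all genes the median difference in the cluster, day 2 minus day 5, was -0.06. FDPS, the farnesyl diphosphate synthase, was at 160 CPM (152 to 169) and 346 CPM (321 to 373), against 110 and 112 CPM in the other cells. SQLE, the squalene epoxidase, was at 55.2 and 127 CPM, against 38.0 and 56.6 CPM. Day and library cannot be told apart here, and whether the cluster and the other cells differ in this change was not tested.

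The most S-rich WT cluster of day 2 is given for its levels alone, since WT and CF cells had been clustered apart. It was WT cluster 26, with 339 cells, and the authors named it acinar, not ductal. Its summed S list was at 3613 CPM, against 1846 CPM in CF cluster 10, and its G2/M list at 2641 CPM against 1972 CPM. MCM4 was at 162 CPM (153 to 172), E2F1 at 56.7 CPM (51.3 to 62.5) and TK1 at 112 CPM (104 to 120). All 5 markers were thus higher in WT cluster 26 than in CF cluster 10. Outside the cycle KRT7 was at 869 CPM, against 2184 CPM in CF cluster 10, and PRDX2, of the study's acinar list, at 329 CPM against 51.4 CPM. KRT5 was at 1503 against 1422 CPM. Genotype, library and clustering cannot be told apart in these values.

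Other pathways had few genes at 2-fold between cluster 10 and the other CF day 2 cells. The share of all genes above the other cells was not counted, and the median over all 7700 genes was 0.01. Ribosome biogenesis gave none of 16 genes at 2-fold but 15 of 16 above the other cells, with a median of 0.38. The list summed to 1707 CPM in cluster 10 against 1229 CPM. NCL, the nucleolin gene, was at 564 against 403 CPM and DKC1, which modifies ribosomal RNA, at 60.8 against 30.8 CPM. Glycolysis genes were all 10 above the other cells, with a median of 0.22 and none at 2-fold. Of 9 p53 target genes none was at 2-fold, with a median of -0.25, and MDM2, the negative regulator of p53, was at 58.3 against 104 CPM. Notch, WNT and immediate early lists had no gene at 2-fold, with medians of 0.16, -0.11 and -0.11. Among BMP and TGF-beta targets 1 of 11 was at 2-fold, TGFBI, an extracellular matrix gene, at 24.6 CPM (21.5 to 28.1) against 7.77 CPM. By single clusters TGFBI was highest in cluster 26, named ductal, at 152.7 CPM, and cluster 10 ranked 2 of 12. Cluster 24 came next, within the interval given for cluster 10.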

How the data were processed

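The authors had counted UMIs with Cell Ranger 5.0.1 and processed them in Seurat, with filters of at least 200 genes and at most 20% mitochondrial UMIs and removal of doublets with DoubletFinder. The deposited matrices held raw UMI counts of 27912 genes. A deposited cell table added total counts, the percent mitochondrial share, an S score and a G2M score, the phase, the cluster and its class name of every retained cell. Pseudotime from slingshot was deposited as a score by lineage. The deposited normalized values were not used. The gene lists behind the deposited phases are not given in the sources used here.

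UMIs were summed over the cells of a set, scaled to CPM and compared as log2(CPM + 1) among genes of at least 10 CPM in either set, and at least 2-fold on that scale was called higher or lower. Intervals of 95% were exact Poisson for a sum, exact Clopper-Pearson for a share and exact conditional binomial for a ratio of sums. A count of 0 was given the limit of 3 counts. PCR duplicates are collapsed in UMIs, and intervals cover counting error only. Groups had 1 library each, so no test was run. Cells were thinned to 3000 UMIs (seed 1) where shares of cells were compared, leaving out 1 cell of cluster 10 and 38 other cells. Phases were also called with scanpy 1.11.5. The comparison was tested on simulated data.

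Cluster members, markers and gene lists were chosen with earlier results of these data known. Genes named were the 5 markers, the 12 highest and 12 lowest against the other day 2 cells, 6 and 6 in the S cells and between days, members of the lists, CFTR and PDX1, besides those said to be named after their values were seen; PCLAF, H1-5, PHGDH, MTHFD2 and ASPM were also chosen after their values were seen. Of the genes 27467 matched the reference annotation by symbol. Sequences, positions and some single genes are not reported here. Computation used Python 3.11.15, pandas 2.3.3 and scipy 1.17.1.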

Additional observations from a re-analysis of the deposited data

How the results depend on the processing

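No paired analysis was possible because each genotype and day had 1 library and the labels carry no replicate numbers. Of 350 named or listed genes, 121 were at least 2-fold apart; 120 kept their sign under each of 9 alternatives, and 80 stayed at least 2-fold apart under every one. The exception was ASPM, whose log2 difference of -1.34 was 0.32 against other ductal cells, 0.68 without the classes named proliferating (cluster 24 alone at day 2), 0.62 among cells called S and 1.57 without CF clusters 9 and 24. The 121 genes were picked as 2-fold apart in these same cells, and every alternative reused cells of cluster 10. The kept signs thus follow in large part from that choice. The 145 higher genes became 91 with a pseudocount of 5 CPM, 220 with no filter on low values and 34 with a filter of 50 CPM. The 100 lower genes became 62, 166 and 26 under the same settings, 185 with cells thinned to 3000 UMIs and 62 among cells called S. The log2 ratio of the summed S list, 1.53, was 1.5002 with TMM and 1.4992 with DESeq2 scaling, 1.69 against other ductal cells, 1.73 without the classes named proliferating, 1.64 with equal weight for each cell, 1.68 with thinned cells, 1.01 among cells called S and, in an alternative chosen after seeing the data, 1.76 without CF clusters 9 and 24. The ratio of the summed G2/M list, 0.38, was 0.35, 0.35, 0.73, 0.71, 0.43, 0.43, 0.49 and 0.77 in the same order, and was highest where proliferating cells were left out of the reference. The share of cluster 10 in S, 92.8%, was 47.4% by own scoring of thinned cells and, added after seeing the data, 45.5% by own scoring without thinning, where the other cells had 0.361%; the cause was not tested. The 53 cells of day 5 limit every value given for that day.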

Other observations

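In the deposited pseudotime, 99.0% of the 403 cells of cluster 10 lay on lineage 5 and 99.0% on lineage 7, with medians of 21.5 and 25.1. Of the other CF day 2 cells 52.2% and 49.9% lay on these lineages, with medians of 6.96 and 9.64. On lineages 1, 2 and 3, which held 71.2 to 72.7% of cluster 10, its medians were 11.3, 12.01 and 11.2, against 14.2, 14.7 and 16.1 in the other cells. The values of cluster 10 cover its cells of all days, whereas those of the other cells cover day 2 alone. No order in time was measured.

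The deposited phase S was common in day 2 clusters whose summed S list was low. Clusters 2 and 6 had 20.4 and 27.1% of cells called S with summed S lists at 502 and 596 CPM, while cluster 4 had 10.8% called S with 540 CPM. Cluster 24, at 2279 CPM, had 17.5% called S, 82.5% called G2M and none called G1.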
